A study of Homo sapiens with 36 samples.

Results

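The genes followed here, IL6, IL11, CXCL8, CXCL1, CXCL2, CCL2, CCL20, IL1A, IL1B and TSLP, encode cytokines and chemokines that tubular epithelial cells can secrete. They are 10 of the 19775 genes that the arrays report through a probe set annotated to a single symbol. The 10 genes have 16 such probe sets, and each gene was read from 1 of them, the set with the highest mean over the 36 arrays, with sets of the cross-hybridising type (names ending in x_at) taken last. The remaining sets served as a check.

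The study exposed HK-2 cells, an immortalised line of human renal proximal tubule epithelium, to compounds toxic to the kidney in search of expression signatures of toxicity. RNA of 36 cultures was hybridised to 1 Affymetrix array each. The 12 groups hold 3 arrays apiece, which the labels call biological replicates: a high dose, a low dose and a vehicle control of a compound labelled Aa at 24 h and at 48 h, and the same of a compound labelled Ota at 24 h and at 72 h. The labels give the doses as high and low without a concentration, so it is not known how the doses of the compounds compare. All 12 groups grew in the same DMEM and Ham's F12 medium, supplemented with epidermal growth factor, hydrocortisone, insulin, transferrin and selenite, and were treated near confluence, 24 h after seeding. The high and the low dose at each time share their vehicle cultures.

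IL-6 and IL-11 are relatives that signal through the shared receptor chain gp130 to JAK kinases and STAT3. CXCL8, CXCL1 and CXCL2 draw neutrophils through CXCR1 and CXCR2, CCL2 draws monocytes through CCR2, and CCL20 draws CCR6-bearing lymphocytes and dendritic cells. IL-1α and IL-1β act on the IL-1 receptor, and TSLP is an epithelial alarmin that shares the IL-7 receptor chain. Many of these genes are induced through NF-kB and AP-1, and their mRNAs are short-lived because of AU-rich elements. Injured tubules are a known source of several of them in the kidney.

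Upstream sequence is shown for IL6, IL11, CXCL8 and CCL20, and in part for CXCL1 and CXCL2, because such genes are known NF-kB and AP-1 targets. The bases before the annotated start were taken from RefSeq (GRCh38.p14), with a window for 9 of the 10 members. CCL2, which fell at the high dose of both compounds, has no window. That of IL1B, also lowered in some comparisons, is not printed. Capitals mark matches to the kB letters GGNNTTTCC on either strand, the AP-1 letters TGANTCA on either strand and TATAAA on the gene strand.
IL6, chr7:22726950-22727199, plus strand: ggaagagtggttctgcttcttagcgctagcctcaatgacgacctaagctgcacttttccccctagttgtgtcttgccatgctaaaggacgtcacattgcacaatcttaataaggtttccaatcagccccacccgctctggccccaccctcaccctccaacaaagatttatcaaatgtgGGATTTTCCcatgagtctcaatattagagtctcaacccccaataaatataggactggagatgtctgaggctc
IL11, chr19:55370464-55370713, minus strand: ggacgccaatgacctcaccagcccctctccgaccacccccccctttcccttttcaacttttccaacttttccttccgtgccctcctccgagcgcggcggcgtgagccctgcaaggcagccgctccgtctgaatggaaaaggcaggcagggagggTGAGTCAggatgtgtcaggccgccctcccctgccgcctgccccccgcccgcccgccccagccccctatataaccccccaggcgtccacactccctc
CXCL8, chr4:73740319-73740568, plus strand: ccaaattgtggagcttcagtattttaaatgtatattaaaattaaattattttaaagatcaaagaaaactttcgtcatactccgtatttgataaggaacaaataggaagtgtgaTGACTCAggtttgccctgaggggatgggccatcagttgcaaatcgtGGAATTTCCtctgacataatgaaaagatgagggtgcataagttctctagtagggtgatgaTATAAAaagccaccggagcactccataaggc
CCL20, chr2:227813592-227813841, plus strand: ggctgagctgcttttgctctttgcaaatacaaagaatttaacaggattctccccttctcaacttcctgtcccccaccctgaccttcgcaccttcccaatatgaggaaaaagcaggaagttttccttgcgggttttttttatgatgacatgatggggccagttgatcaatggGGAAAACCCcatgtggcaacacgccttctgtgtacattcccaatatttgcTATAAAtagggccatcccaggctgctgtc
CXCL1 and CXCL2 are neighbouring, closely related genes, and the 50 bases from -90 to -41 before their starts are set side by side because they hold 2 kB matches each.
CXCL1, chr4:73869303-73869352, plus strand: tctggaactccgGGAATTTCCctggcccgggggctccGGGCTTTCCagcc
CXCL2, chr4:74099236-74099285, minus strand: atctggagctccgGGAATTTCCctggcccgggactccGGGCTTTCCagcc

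The IL6 window holds 1 kB match, at -72 to -64, and the CCL20 window 1 at -79 to -71. CXCL8 carries an AP-1 match at -137 to -131 and a kB match at -91 to -83, with a TATAAA at -31 to -26. In IL11 the letters matched were those of AP-1 alone, at -96 to -90. Over the whole 250 bases, 6 members held a kB match, 3 an AP-1 match and 4 a TATAAA, and IL1B held none of these letters in this window. Among all 35116 windows of this length, from 27305 genes, 5.48% held the kB letters, 6.57% the AP-1 letters and 6.80% TATAAA. A match is a run of letters, not a bound site.

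Values are log2 GCRMA signals, and those at or under 4 were treated as not distinguishable from background. Between 10055 and 10557 genes exceeded 4 on an array. Replicate arrays correlated with r from 0.950 to 0.994. The Ota high dose arrays stood apart: the median over the tested genes was 7.64 ± 0.16 at 24 h, against 8.28 ± 0.06 in their vehicle controls, and 7.95 ± 0.05 at 72 h, against 8.28 ± 0.02 (SD, n = 3 each). Scaling all arrays to 1 median moved the median Ota high dose change over all genes by 0.64 at 24 h and by 0.33 at 72 h. For the chosen probe sets, the value after this shift to 1 median, or after quantile normalisation, is therefore given in some cases. These are where it changes a call or a direction or moves a called change by over 1.5 times. Other probe sets are given as deposited only. The signal difference between the 3' and 5' actin probe sets, a sign of RNA quality, was 1.88 ± 0.37 at the Ota high dose at 72 h, against 1.29 ± 0.15 in the vehicle controls, and 1.25 ± 0.30 at the Aa high dose at 48 h, against 0.86 ± 0.22. Its part in the cytokine values was not tested.

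All 6 epithelial keratin and adhesion markers exceeded 4 on every array, but of 9 proximal tubule markers with a probe set 1 did in the controls (PDZK1), while LRP2, the megalin gene of differentiated proximal tubule, lay between 2.92 and 3.00 on the control arrays. In the controls 3 of 7 fibroblast markers (COL1A1, DCN and LUM) and 1 of 6 endothelial markers (ESAM) also exceeded 4, and the summed fibroblast signal at 72 h was 10.7 to 11.2 at the Ota low dose and 10.3 to 11.0 at the high dose, against 9.57 to 9.91 with vehicle. The summed endothelial signal was 5.79 to 6.19 at the Ota high dose at 72 h, against 7.19 to 7.47. Of 9 leukocyte markers none exceeded 4 on a control array, and PTPRC, CD14, CSF1R and CD3E did so on no array. The summed leukocyte signal was 7.15 to 7.51 at the Ota high dose at 24 h, against 5.55 to 5.58 in its controls, and 6.98 to 7.53 at 72 h, against 5.51 to 5.62. At the Aa high dose it was 5.95 to 6.97 at 48 h, against 5.53 to 5.60. FCER1G averaged 6.47 and 6.77 at the Ota high dose at 24 h and 72 h and 4.73 at the Aa high dose at 48 h, and ITGAM averaged 4.96 at the Ota high dose at 24 h. Their part in the cytokine values was not tested. In cultures measured as a whole, fewer cells of a type and less RNA per cell cannot be told apart.

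Of the 10 members, 5 reached a value over 4 on at least 3 of the 18 arrays of a compound and were tested for it. These were IL6, CXCL8, CCL2 and IL1B for both compounds, IL11 for Aa and CCL20 for Ota. IL11 passed through the Aa high dose arrays at 48 h alone, so it had to differ there, and its change is given as a description with no test. IL1B exceeded 4 on 4 Aa arrays, those of the 48 h vehicle and a low dose array at 48 h. Its Aa changes that involve the 48 h vehicle were thus shaped by the filter and are also given as a description. The chosen probe sets of CXCL1 (2.43 to 2.52), TSLP (2.68 to 2.83) and CXCL2 (2.78 to 3.39) stayed under 4 on all 36 arrays, and IL1A exceeded 4 on 2.

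**Figure D1:**
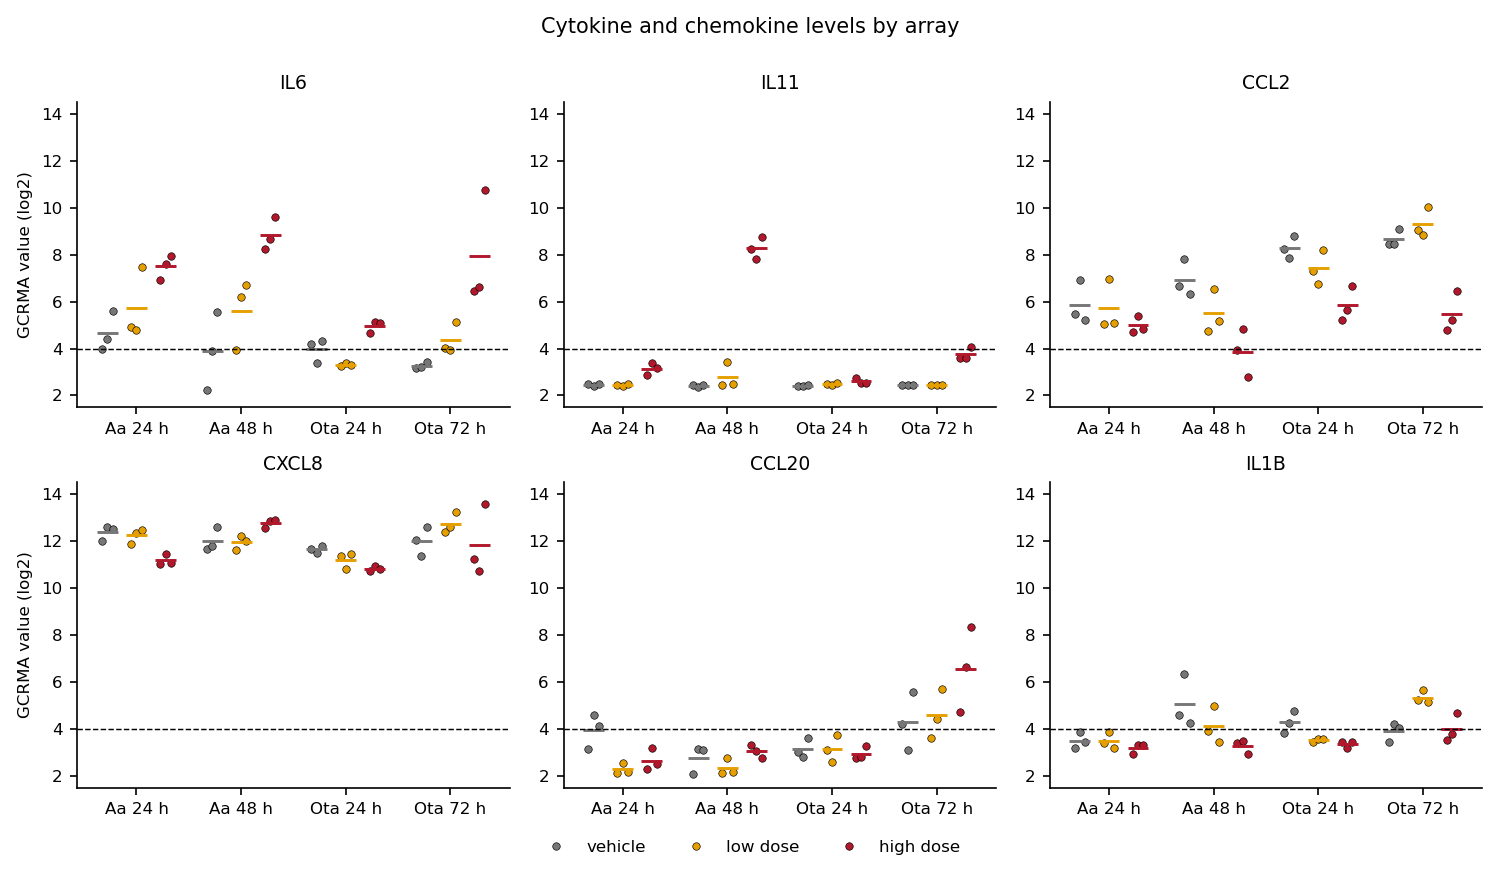
Log2 GCRMA signal of IL6, IL11, CCL2, CXCL8, CCL20 and IL1B on each of the 36 arrays (vertical axis), by compound and time with vehicle in grey, low dose in orange and high dose in red; short bars are group means and the dashed line marks 4, the level taken as background. IL6 averages highest at the Aa high dose at 48 h (8.83), IL11 leaves background on all 3 arrays of that group, and CCL2 averages lowest there (3.85).

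IL6, the acute-phase cytokine of the group, was induced at the high dose of both compounds, by 24 h with Aa and at 72 h with Ota. Its 24 h arrays read 3.99, 4.40 and 5.58 in the Aa vehicle cultures, 4.90, 4.80 and 7.49 at the low dose and 6.91, 7.61 and 7.96 at the high dose. At 48 h they read 2.22, 3.90 and 5.54 with vehicle, 3.95, 6.18 and 6.71 at the low dose and 8.25, 8.64 and 9.58 at the high dose. All high dose arrays lay above all vehicle arrays at both times, while the low dose overlapped both neighbours at 24 h and the vehicle at 48 h. The vehicle arrays spread widely, with an SD of 1.66 at 48 h.

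The Aa high dose raised IL6 by 2.83 ± 0.88 log2 units at 24 h (SE; limma adjusted p = 0.0139; 0.000117 with the replicate number as a block). Without replicate 1 of the 24 h vehicle the change was 2.50 with adjusted p = 0.0549, the only one of the single-array omissions to end the call; the other settings tried gave adjusted p from 0.000117 to 0.0388. At 48 h the rise was 4.94 ± 0.88 (adjusted p = 0.000156), or 4.31 with values at or under 4 set to 4. At the low dose IL6 differed from vehicle by 1.07 ± 0.88 at 24 h (adjusted p = 0.424) and by 1.73 ± 0.88 at 48 h (adjusted p = 0.136; 0.00625 with the block).

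With Ota, IL6 read 4.20, 3.38 and 4.31 in the 24 h vehicle cultures, 3.25, 3.39 and 3.30 at the low dose and 4.66, 5.11 and 5.08 at the high dose. The 72 h arrays read 3.15, 3.20 and 3.44 with vehicle, 4.004, 3.94 and 5.11 at the low dose and 6.44, 6.63 and 10.75 at the high dose. The high dose arrays were above every vehicle array at both times, and replicate 3 at 72 h held the highest IL6 signal of the series. At 72 h, where the vehicle arrays were all under 4, IL6 was at least 15.3-fold higher at the high dose (limma adjusted p = 6.93e-05), a bound that falls to 5.798-fold without that replicate. The fitted change was 4.67 ± 0.77, and 3.27 without it. At 24 h the high dose change of 0.98 ± 0.77 did not pass (adjusted p = 0.277; interval -0.69 to 2.66). It was 1.80 under quantile normalisation (adjusted p = 0.035) and 1.62 with the arrays shifted to 1 median (adjusted p = 0.0692), within a range of 0.035 to 0.385 over the settings tried.

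IL11, the profibrotic relative of IL6, left background on all arrays of 1 group, the Aa high dose at 48 h. It read 2.46, 2.36 and 2.43 in the 48 h Aa vehicle cultures, 2.44, 3.41 and 2.49 at the low dose and 8.23, 7.82 and 8.77 at the high dose. The 3 high dose arrays at 48 h were the only Aa arrays over 4. At the Aa high dose at 24 h it read 2.85, 3.37 and 3.16, against 2.48, 2.41 and 2.48 with vehicle, every value being under the background level. IL11 was at least 19.4-fold higher at the Aa high dose at 48 h than in vehicle cultures.

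In the Ota cultures IL11 read 3.59, 3.59 and 4.06 at the high dose at 72 h, against 2.43, 2.45 and 2.44 with vehicle, with a single array just over 4, and it was not tested there. Its second probe set stayed between 3.04 and 3.48 on all arrays but 1 of the Ota high dose at 24 h (4.08), and read 3.06, 3.05 and 3.48 at the Aa high dose at 48 h. The induction was thus seen by 1 of the 2 IL11 probe sets.

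CXCL8, the main human neutrophil chemokine, moved in opposite directions at the 2 Aa times. At 24 h the Aa arrays read 11.997, 12.58 and 12.52 with vehicle, 11.87, 12.36 and 12.48 at the low dose and 11.03, 11.43 and 11.08 at the high dose. At 48 h they read 11.66, 11.81 and 12.58 with vehicle, 11.61, 12.23 and 12.01 at the low dose and 12.55, 12.87 and 12.90 at the high dose. All 24 h high dose arrays lay below the others, whereas at 48 h they touched the range of the vehicle, which reached 12.58.

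The Aa high dose lowered CXCL8 at 24 h by a log2 change of -1.18 ± 0.25 (limma adjusted p = 0.000951), and the second CXCL8 set, of the x_at type, gave -0.91 (adjusted p = 0.00012). At 48 h the chosen set rose by 0.76 ± 0.25 (adjusted p = 0.0137), but the second set changed by 0.29 (adjusted p = 0.095). That 48 h rise also missed the threshold without vehicle replicate 1 (0.58, adjusted p = 0.072), without vehicle replicate 2 (0.66, adjusted p = 0.0558), or fitted over all 36 arrays (adjusted p = 0.127), within 0.000816 to 0.127 over the settings tried. The difference between the 48 h and the 24 h effect was 1.94 ± 0.35 (adjusted p = 0.00211) and 1.20 ± 0.21 in the second set (adjusted p = 0.0018).

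With Ota, CXCL8 read 11.67, 11.49 and 11.77 in the 24 h vehicle cultures, 11.36, 10.81 and 11.43 at the low dose and 10.73, 10.94 and 10.82 at the high dose. At 72 h it read 12.03, 11.35 and 12.62 with vehicle, 12.39, 12.60 and 13.24 at the low dose and 11.25, 10.71 and 13.59 at the high dose. The 24 h high dose arrays were all below the vehicle arrays, and the 72 h high dose arrays spanned more than the whole vehicle range. Neither high dose change passed on the chosen set: -0.81 ± 0.52 at 24 h (limma adjusted p = 0.186; -0.18 with the arrays shifted to 1 median) and -0.15 ± 0.52 at 72 h (adjusted p = 0.823; 0.18 after that shift). The second set gave -1.14 at 24 h (limma adjusted p = 0.02). That value is as deposited, and the shift moved the median change over all genes by 0.64 there. Without high dose replicate 3 the 72 h change on the chosen set was -1.02 (adjusted p = 0.0136).

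CXCL1 and CXCL2, the other neutrophil chemokines, could be judged only in part. The single CXCL1 set stayed at background on every array. Of the 3 CXCL2 sets the chosen one and another (2.49 to 2.58) did too, while the set of the x_at type read between 7.09 and 11.23. Sets of the x_at type can bind near-identical relatives, so its signal is not assigned to CXCL2 alone.

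On that set the Aa high dose read 8.85, 8.97 and 8.37 at 24 h, against 9.04, 9.62 and 9.77 with vehicle, and 10.10, 10.39 and 10.33 at 48 h, against 8.89, 8.99 and 9.72. The groups did not overlap at either time: lower at 24 h and higher at 48 h, as for CXCL8. The log2 change on this x_at set was -0.74 at 24 h (limma adjusted p = 0.0294) and 1.07 at 48 h (adjusted p = 0.00239), and the times differed by 1.81 ± 0.37 (adjusted p = 0.00476). At the Ota high dose at 24 h it read 7.31, 8.15 and 7.09, against 9.04, 9.33 and 9.45 with vehicle (log2 change -1.76, limma adjusted p = 0.0126). This change is as deposited, and the shift to 1 median moved the median change over all genes by 0.64 there. At 72 h the change of -0.66 on the x_at set did not pass (adjusted p = 0.325), with high dose arrays at 8.66, 9.17 and 11.23, against 9.89, 9.99 and 11.15.

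**Figure D2:**
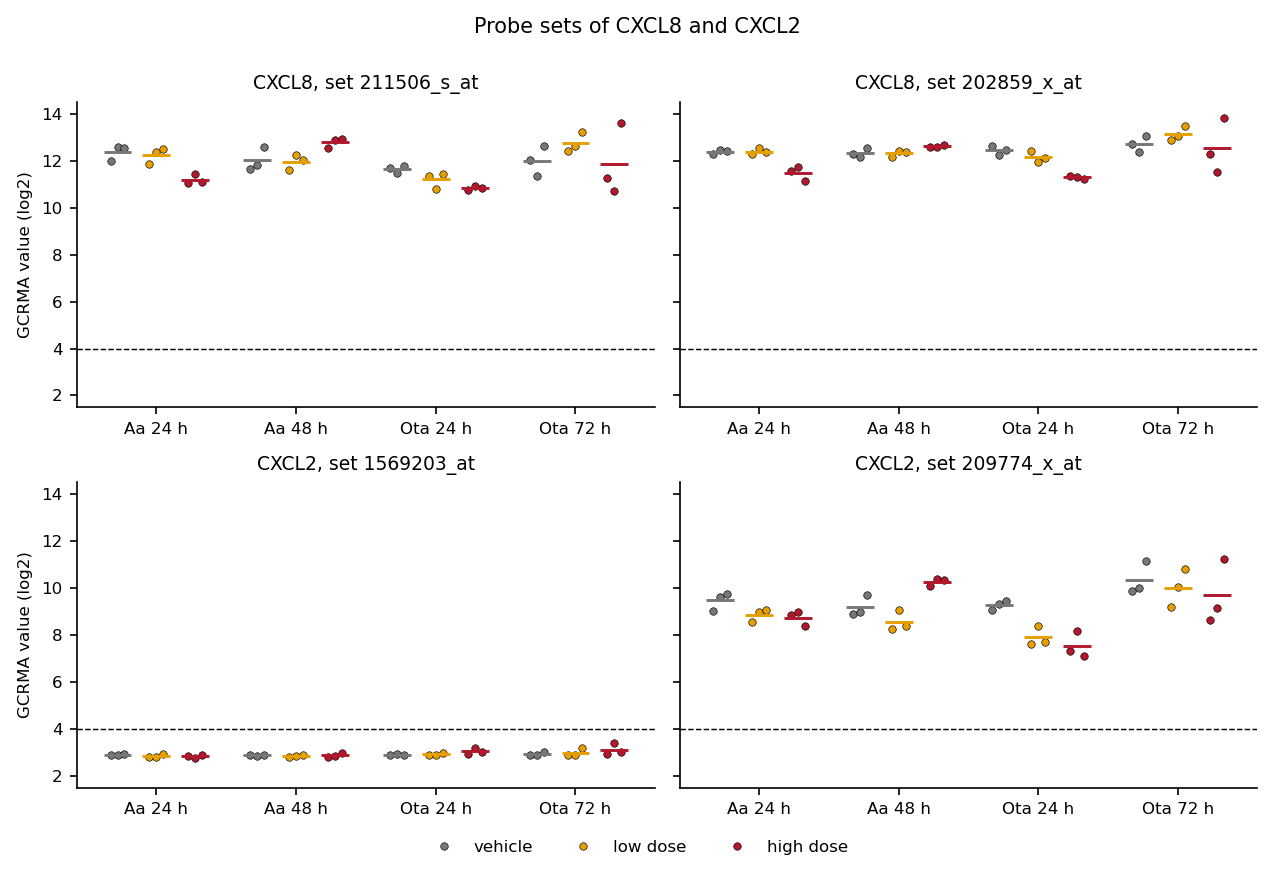
Log2 GCRMA signal on each array (vertical axis) of the chosen probe set (left) and the x_at probe set (right) of CXCL8 (top) and of CXCL2 (bottom), by compound, time and dose. Both CXCL8 sets lie far above background, at 10.71 to 13.59 (chosen) and 11.15 to 13.81 (x_at), but they differ in some groups. In the 24 h Ota vehicle they average 11.64 and 12.44. The chosen CXCL2 set stays between 2.78 and 3.39 while its x_at set lies between 7.09 and 11.23.

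CCL2, the monocyte chemokine, fell at the high dose of both compounds, with Ota at 24 h and 72 h and with Aa at 48 h. At 24 h the Ota arrays read 8.24, 7.87 and 8.77 with vehicle, 7.30, 6.76 and 8.18 at the low dose and 5.19, 5.64 and 6.67 at the high dose. At 72 h they read 8.45, 8.44 and 9.10 with vehicle, 9.05, 8.83 and 10.01 at the low dose and 4.79, 5.19 and 6.44 at the high dose. Every high dose array was below every vehicle and low dose array at both times.

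The Ota high dose lowered CCL2 by a log2 change of -2.46 ± 0.48 at 24 h (limma adjusted p = 0.00034) and of -3.19 ± 0.48 at 72 h (adjusted p = 2.97e-05). With the arrays shifted to 1 median these were -1.82 (adjusted p = 0.00256) and -2.86, and under quantile normalisation -1.55 (adjusted p = 0.00939) and -2.72. The low dose change was -0.88 ± 0.48 at 24 h (adjusted p = 0.264; 0.0114 with the block) and 0.63 ± 0.48 at 72 h (adjusted p = 0.431). High and low dose differed by -1.58 ± 0.48 at 24 h (adjusted p = 0.0106) and by -3.82 ± 0.48 at 72 h (adjusted p = 7.06e-06). The 24 h difference did not pass without high dose replicate 1 (adjusted p = 0.0553), without low dose replicate 3 (0.0623), under quantile normalisation (-0.79, 0.163) or with the arrays shifted to 1 median (-1.07, 0.0558).

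In the Aa series CCL2 started lower, and its vehicle arrays varied more. It read 5.48, 6.93 and 5.19 with vehicle at 24 h, 5.06, 6.98 and 5.09 at the low dose and 4.71, 5.39 and 4.85 at the high dose. The 48 h arrays read 6.68, 7.81 and 6.32 with vehicle, 4.76, 6.55 and 5.17 at the low dose and 3.92, 4.85 and 2.80 at the high dose. Replicate 2 was the highest array in all 6 Aa groups, and only the 48 h high dose was clear of its vehicle arrays.

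The Aa high dose lowered CCL2 at 48 h by a log2 change of -3.08 ± 0.65 (limma adjusted p = 0.000707), or -2.65 with values at or under 4 set to 4. At 24 h the change was -0.89 ± 0.65 (adjusted p = 0.275; 0.0113 with the block; interval -2.31 to 0.53). At the low dose it was -0.16 at 24 h (adjusted p = 0.898) and -1.44 ± 0.65 at 48 h (adjusted p = 0.0945; 0.000682 with the block).

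CCL20 emerged from background with Ota at 72 h. Its arrays there read 4.21, 3.10 and 5.56 with vehicle, 3.63, 4.40 and 5.71 at the low dose and 4.72, 6.64 and 8.34 at the high dose. Replicate 3 was the highest of each group and replicate 1 of the high dose lay within the vehicle range. The high dose change was 2.28 ± 0.76 (limma adjusted p = 0.0156), or 1.98 with values at or under 4 set to 4. It did not pass without high dose replicate 3 (1.39, adjusted p = 0.101) or without vehicle replicate 2 (1.68, adjusted p = 0.0859), and the other settings gave 0.00158 to 0.0465. At 24 h all Ota arrays lay under 4 (2.596 to 3.74), and with Aa 2 arrays exceeded it, both of the 24 h vehicle (4.61 and 4.14), so that CCL20 was not tested for Aa.

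IL1B, the secreted inflammasome cytokine, stayed close to background and moved by dose and time in different ways. With Ota at 72 h it read 3.46, 4.21 and 4.02 with vehicle, 5.21, 5.65 and 5.13 at the low dose and 3.53, 3.77 and 4.68 at the high dose. The low dose arrays lay above all others at that time, the high dose overlapping the vehicle. This low dose change passed, at 1.43 ± 0.28 (limma adjusted p = 0.00271), with 1.25 when values at or under 4 were set to 4 and 1.83 in the second set (adjusted p = 0.00306).

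At 24 h with Ota IL1B read 3.83, 4.23 and 4.77 with vehicle, 3.44, 3.58 and 3.59 at the low dose and 3.45, 3.20 and 3.44 at the high dose. All treated arrays were at background and below all vehicle arrays. The high dose change of -0.92 ± 0.28 (limma adjusted p = 0.0103) is bounded as at least 1.21-fold lower, from the vehicle mean as measured and the treated arrays at 4. It did not pass without vehicle replicate 3 (-0.67, adjusted p = 0.0633), with vehicle values at or under 4 also set to 4 (-0.33, 0.164), or with the arrays shifted to 1 median (-0.28, 0.378), the settings ranging from 0.00499 to 0.378.

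With Aa at 48 h IL1B read 4.59, 6.32 and 4.25 with vehicle, 3.90, 4.99 and 3.45 at the low dose and 3.40, 3.49 and 2.95 at the high dose. The high dose arrays were all at background and below the vehicle arrays. IL1B was at least 2.08-fold lower there, with a fitted change of -1.78 ± 0.45. Without vehicle replicate 2 the bound was 1.34-fold and the fitted change -1.15. IL1B passed the filter for Aa mainly through these vehicle arrays, so the fall is a description and no test supports it. At 24 h the Aa arrays stayed under 4 (2.93 to 3.88). The low dose at 48 h differed from the same vehicle by -0.94 ± 0.45, likewise a description.

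IL1A, the cell-associated alarmin of the IL-1 pair, was near 2.51 to 2.91 on all arrays outside the Ota 72 h treatments. There it read 3.39, 4.55 and 3.94 at the low dose and 2.59, 2.68 and 4.59 at the high dose. With 2 arrays over 4 it was not tested, and its second set stayed between 2.51 and 3.77.

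**Figure D3:**
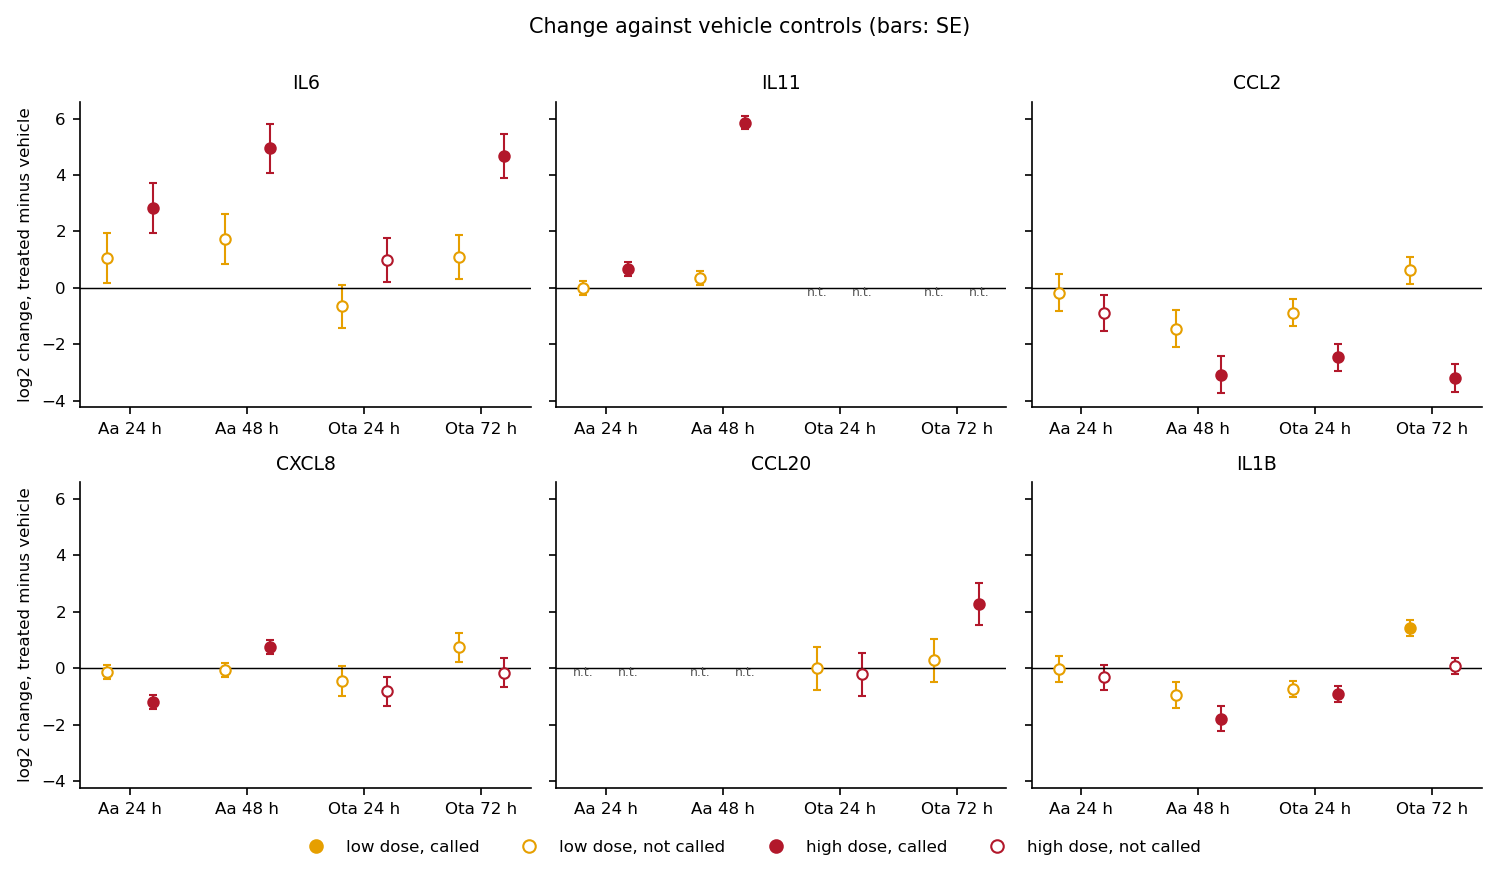
Log2 change from vehicle (vertical axis, with SE bars) of the tested members at the low and the high dose, by compound and time; filled points passed at an adjusted p under 0.05 and n.t. marks members not tested. IL6 is raised and CCL2 lowered at the later high dose of both compounds, at 4.94 and -3.08 with Aa at 48 h and at 4.67 and -3.19 with Ota at 72 h.

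Counted by comparison, the Aa high dose changed 3 of 5 tested members at 24 h (IL6 and IL11 higher, CXCL8 lower), where 51.3% of all tested genes passed, with IL11 under 4 on all those arrays. Without vehicle replicate 1 that count was 1. At 48 h it changed 5 of 5, where 66% of all genes passed: IL6, IL11 and CXCL8 higher, CCL2 and IL1B lower. IL11 and IL1B were selected through one of the groups compared there, so their calls count for nothing. The Ota high dose changed 2 of 5 at 24 h (64% of all genes; 1 without vehicle replicate 3) and 3 of 5 at 72 h (63.4%). These counts are near the shares over all genes, and members enter them only through a filter on signal. They carry no finding about the members as a group.

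Without the replicate block the low doses changed few members by the limma test, although the Aa arrays pair by replicate number. With Aa the count was 0 of 5 at 24 h (25.1% of all genes, 0 at an unadjusted p under 0.05) and 0 of 5 at 48 h (37.9%, 1 unadjusted, CCL2). The block gave 3 at 48 h, IL6, CCL2 and IL1B, the last selected through the 48 h vehicle. Each of these also passed in some single-array omissions. With Ota the count was 0 of 5 at 24 h (14.7%, 1 unadjusted, IL1B), 1 with the block, and 1 of 5 at 72 h (17.1%), IL1B. High against low dose, 2 members passed with Aa at 24 h (27.1%, and 4 with the block) and 3 at 48 h (46.5%, and 5 with the block). IL11 was among them at both times. It was under 4 on all arrays of both groups at 24 h, and at 48 h it had to differ through its selection. The percentages are without the block. With it, 5839 of 10972 genes passed for the Aa low dose at 48 h and 1766 of 11029 for the Ota low dose at 24 h. Between high and low Aa dose 4553 passed at 24 h and 6445 at 48 h. IL6 passed that contrast at 48 h (3.22 ± 0.88, adjusted p = 0.00767) but not at 24 h (1.77 ± 0.88, adjusted p = 0.158; 0.00722 with the block).

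With Ota, 1 member passed between high and low dose at 24 h (58.1% of all genes), and 4 at 72 h (58.4%). The 24 h call depends on the scaling: CCL2 passed as deposited and not under either scaling, whereas IL6, at 1.63 ± 0.77 as deposited (limma adjusted p = 0.0813), passed with the arrays shifted to 1 median (2.14, 0.0222) and under quantile normalisation (2.38, 0.00884). At 72 h IL6 was higher at the high than at the low dose by 3.59 ± 0.77 (limma adjusted p = 0.000915; 2.18 without high dose replicate 3) and IL1B lower by a log2 change of -1.33 ± 0.28 (adjusted p = 0.000873). CCL20 was higher by 1.99 ± 0.76 (adjusted p = 0.0342), a call lost in each of 4 single-array omissions, high dose replicate 3 leaving 1.10 (adjusted p = 0.2). CXCL8 differed by -0.89 ± 0.52 (adjusted p = 0.158; -0.55 with the arrays shifted to 1 median), and by -1.76 without high dose replicate 3 (adjusted p = 0.000348).

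The high dose effect grew or turned with time for a few members. For Aa, the 48 h effect exceeded the 24 h effect for CXCL8 (above) and for IL11, by 4.27 with values at or under 4 set to 4, given as a description; the count was 2 of 5 (20.7% of all genes), and 5 with the block. Over all genes the block gave 4304 calls of 10972, against 2276 without it. The 3 members added by the block were IL6 (2.11, limma adjusted p = 0.243, 0.0201 with the block), CCL2 (-2.19, 0.103, 0.00083) and IL1B (-1.46). IL1B was selected through the 48 h vehicle, so its value is a description. For Ota, 2 of 5 passed between 72 h and 24 h (53.8%), IL6 by 3.69 ± 1.09 (adjusted p = 0.00976, and 2.29 without the 72 h high dose replicate 3) and IL1B by 1.02 ± 0.40 (adjusted p = 0.0441). The block added CCL20 (2.49, limma adjusted p = 0.0615, 0.0109 with the block) and CCL2 (-0.73, 0.381, 0.0499). Over all genes it gave 6121 calls of 11029, against 5939 without it. CCL20 also passed under quantile normalisation (0.0274) but not with the arrays shifted to 1 median (0.097), and its 24 h Ota arrays were all under 4. The IL1B call was lost with values at or under 4 set to 4 (0.48, adjusted p = 0.168), with the arrays shifted to 1 median (0.71, 0.144), in the second set (0.0631), with no filter (0.0919), in the fit of all 36 arrays (0.122) and in 8 of 12 single-array omissions, within 0.017 to 0.168 over the settings other than omissions. The low dose effect of Ota differed with time for 1 of 5 members (7.34% of all genes), IL1B, by 2.17 ± 0.40 (limma adjusted p = 0.00455). With values at or under 4 set to 4 this difference was 1.59. The block added CCL2 (1.51, limma adjusted p = 0.215, 0.00782 with the block), and over all genes it gave 974 calls of 11029, against 809 without it. For Aa the low dose effect passed for 0 of 5 (1.64%; 0 unadjusted).

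Time in vehicle alone changed 0 of 5 members with Aa (1.29% of all genes; 1 unadjusted, IL1B). With the block 2 passed, CCL2, higher by 1.06 in the 48 h than in the 24 h vehicle cultures (limma adjusted p = 0.0189), and IL1B. IL1B entered the Aa fit through its 48 h vehicle arrays. Its difference of 1.55 is thus a description, and neither its block call nor its unadjusted one tests a rise with time. Over all genes the block gave 1792 calls of 10972, against 142 without it. In the Ota vehicle cultures 0 of 5 passed between 72 h and 24 h (29.8%; 0 unadjusted).

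The high dose effects of Ota and Aa at 24 h, at doses whose relation is not known, differed for 0 of 6 members (59.4% of all genes, 0 unadjusted). IL11 was under 4 on every 24 h array. CCL20 was under 4 on all 24 h arrays but 2 of the Aa vehicle. The counts for 24 h thus do not judge these members. The IL6 difference of -1.85 had an interval of -4.37 to 0.66 and was -1.11 with the arrays shifted to 1 median. That of CXCL8 was 0.37, with an interval of -0.88 to 1.62, and 1.11 after the shift, but -0.23 on its second probe set. For CCL2 it was -1.57 (interval -3.31 to 0.17; limma adjusted p = 0.111, and 0.000461 with the block; -0.83 after the shift). At the low doses 0 of 6 passed (4.94%; 0 unadjusted).

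As a level across the 12 groups, IL6 averaged highest at the Aa high dose at 48 h (8.83 ± 0.68), followed by the Ota high dose at 72 h (7.94 ± 2.43) and the Aa high dose at 24 h (7.49 ± 0.53; SD, n = 3 each). The Ota arrays overlap those of both Aa groups, so its place among them is not settled, while the Aa high dose arrays at 48 h all lay above those at 24 h. Next came the Aa low dose at 24 h (5.73 ± 1.52) and at 48 h (5.61 ± 1.47), which overlap each other and the Ota high dose at 72 h. The remaining groups averaged 3.26 to 4.95. CCL2 averaged from 9.30 ± 0.63 at the Ota low dose at 72 h down to 3.85 ± 1.03 at the Aa high dose at 48 h. The next lowest CCL2 group, the Aa high dose at 24 h, overlapped it.

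The genes whose change over the 24 treated arrays was most like a member's were sought among 11405 genes, as a description with no test. The points share 3 replicate cultures per group and the overall array signal. IL6 was most like DUSP14 (r = 0.868) and EIF3D (0.837), and CCL2 most like KLRG2 (0.893) and MPC2 (0.891). The highest correlations were those of IL11 with RND1 (0.999) and ZNF296 (0.997), which rest on the 3 Aa high dose arrays at 48 h. CCL20 was most like SHOC1 (0.932) and TNFSF15 (0.887), IL1B like ARLN (0.865) and PAQR4 (0.855), and CXCL8 like DRC10 (0.796) and CENPX (0.775). Between members, r was 0.53 for IL6 with IL11, 0.52 for IL6 with CCL20, 0.58 for CCL2 with IL1B and -0.42 for IL6 with CCL2.

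Of 21 listed NF-kB subunits, kinases and feedback genes, 18 were tested, and they were mostly higher with Aa. At the Aa high dose 13 rose and 1 fell at 24 h, with a median change of 0.83 against 0.03 over all genes, of which 27.4% rose and 24% fell. At 48 h 11 rose and 2 fell, with a median of 0.88 against -0.04, where 30.9% of all genes rose and 35.1% fell. NFKBIB, which encodes an inhibitor that holds NF-kB in the cytoplasm, was at least 1.94-fold higher at 24 h and at least 5.83-fold higher at 48 h (limma adjusted p = 0.000134 and 2.47e-07). TNFAIP3, the A20 feedback enzyme, rose by 1.48 and 2.54, and the subunit RELB by 1.44 and 2.28. NFKBIZ was among those called higher at 24 h, but another of its probe sets was called lower.

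With Ota the same list gave 3 higher and 6 lower at 24 h, with a median of -0.20 against -0.26 over all genes, of which 21.6% rose and 42.4% fell. With the arrays shifted to 1 median it gave 8 higher and 3 lower and a median of 0.44. Over all 11029 tested genes the shift gave 5193 higher and 2943 lower. The balance thus turns with the scaling over all genes, not in this list alone. At 72 h 7 were higher and 2 lower (median 0.28 against -0.12), where 26.3% of all genes rose and 37% fell. After the shift 11 were higher and 1 lower, against 4370 and 3083 over all genes. IKBKG, the regulatory subunit of the IκB kinase complex, was at least 2.63-fold lower at 24 h (limma adjusted p = 4.78e-10) and differed by 0.30 at 72 h (adjusted p = 0.124; 0.63 with adjusted p = 0.00413 after the shift). TNFAIP3 rose by 2.62 at 24 h and by 0.90 at 72 h (adjusted p = 0.0243), and NFKBIB by 2.03 at 72 h.

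**Figure D4:**
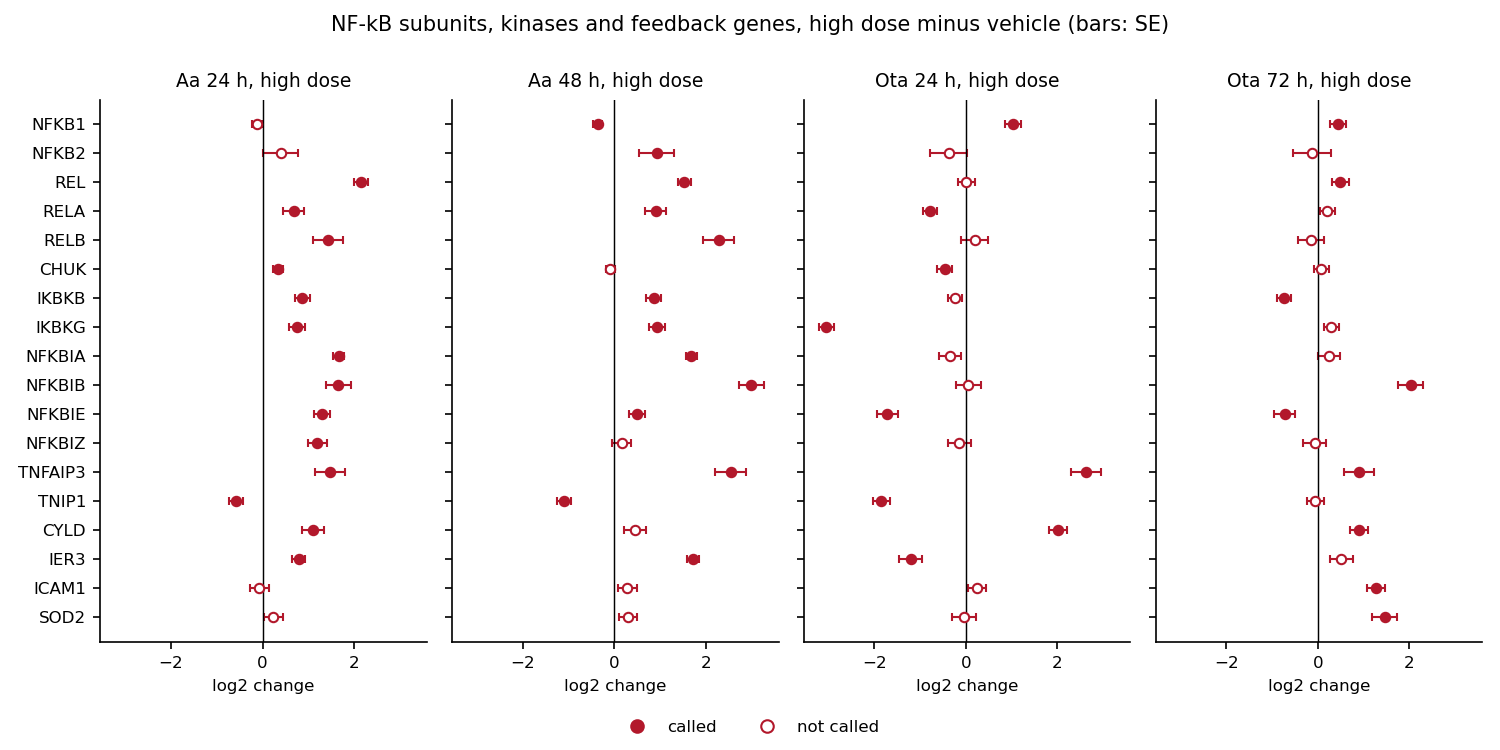
Log2 change from vehicle (horizontal axis) of the 18 tested NF-kB list genes at the 4 high dose comparisons; filled points passed at an adjusted p under 0.05. Most genes lie right of 0 at both Aa times, while the Ota 24 h points fall on both sides, with IKBKG at -3.05 and TNFAIP3 at 2.62.

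Among the other cytokine transcription factors all 7 were tested. The counts of this list and of those below were not tested against the shares over all genes. At the Aa high dose 27.4% of all genes rose and 24% fell at 24 h, and 30.9% and 35.1% at 48 h. At the Ota high dose 21.6% rose and 42.4% fell at 24 h, and 26.3% and 37% at 72 h. After the shift 5193 of 11029 rose and 2943 fell at 24 h, and 4370 and 3083 at 72 h. With Aa 4 rose and 1 fell at both times, with medians of 0.63 and 1.39. ATF3, a stress-induced factor that binds AP-1 and CRE sites, rose by 5.40 ± 0.40 at 24 h and 6.90 ± 0.40 at 48 h (limma adjusted p = 1.02e-07 and 4.59e-09). The AP-1 member FOSL1 rose by 3.27 ± 0.61 at 48 h alone (-0.03 at 24 h, adjusted p = 0.977), and IRF1, an interferon regulatory factor, by 2.19 and 2.08. With Ota 1 rose and 5 fell at 24 h and 2 rose and 4 fell at 72 h, with medians of -1.25 and -0.92; after the shift to 1 median the counts were 2 and 3 at 24 h and 2 and 2 at 72 h. ATF3 rose by 4.01 at 24 h but differed by -1.004 ± 0.40 at 72 h (adjusted p = 0.0366; -0.68 with adjusted p = 0.14 after the shift), where its vehicle level was already 9.75 ± 0.28, against 4.17 ± 0.87 in the 24 h vehicle. The immediate-early gene EGR1 fell by 1.29 and 2.23, and CEBPD, an acute-phase factor that acts on IL6, by 1.49 and 1.72. After the shift their 24 h changes were -0.65 for EGR1 and -0.86 for CEBPD, both still called.

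Of 13 receptor genes for the members, 5 were tested for each compound. With Aa 1 rose and 2 fell at either time (medians 0.24 and -0.55). The IL-1 receptor accessory chain IL1RAP fell by 1.73 and 1.74 (limma adjusted p = 5.23e-06 and 2.21e-06) and the signalling receptor IL1R1 by 1.64 at 48 h, while IL6R rose by 1.20 at 48 h. With Ota 3 rose and none fell at either time, with medians of 0.65 and 1.33, or 4 and 5 rose after the shift to 1 median, with medians of 1.29 and 1.66. The decoy receptor IL1R2 rose by 3.72 ± 0.36 at 72 h (adjusted p = 2.81e-07), at 8.21 ± 0.49 against 4.49 ± 0.05 with vehicle, and differed by 0.54 at 24 h (adjusted p = 0.2; 1.18 with 0.00695 after the shift). IL6R rose by 0.65 (1.29 after the shift) and 1.49, and IL1RAP by 1.41 at 24 h, opposite in sign to its Aa change.

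Of 10 genes that process or oppose IL-1, 4 were tested, and none rose in any high dose comparison. With 4 genes this says little about the list. Over all genes 24% and 35.1% fell with Aa at 24 h and 48 h, and 42.4% and 37% with Ota at 24 h and 72 h. PYCARD, the inflammasome adaptor ASC, fell by 1.97 and 3.11 with Aa and by 2.20 and 3.19 with Ota (limma adjusted p from 0.000164 to 4.9e-07). With Aa 2 genes fell at each time, the other being IL18 (-0.41 and -0.80), and 4 fell at 24 h after the shift to 1 median. With Ota 4 fell at 24 h and 3 at 72 h, including the inhibitory receptor SIGIRR (-1.36 and -2.32) and the pore-forming GSDMD (-0.84 and -1.24). With the Ota arrays shifted to 1 median PYCARD and SIGIRR still passed at 24 h and GSDMD did not (-0.21, adjusted p = 0.549). The shifted SIGIRR change was -0.72. Under quantile normalisation the 24 h changes were -1.29 for PYCARD, -0.48 for SIGIRR (adjusted p = 0.108) and 0.14 for GSDMD, and GSDMD at 72 h was -0.71 (adjusted p = 0.0525).

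Of 23 other cytokines and chemokines, 10 were tested. With Aa 1 rose and none fell at 24 h (1 and 2 with the block) and 1 rose and 3 fell at 48 h. LIF, another gp130 cytokine, rose by 0.75 ± 0.18 and 1.89 ± 0.18 (limma adjusted p = 0.00284 and 3.66e-07), while the mucosal chemokine CCL28 fell by 1.84 and IL15, which sustains natural killer cells, by 1.20 at 48 h. With Ota 4 rose and 2 fell at 24 h, and 4 rose and 5 fell at 72 h. The log2 change of CCL28 was -2.92 and -1.57, that of IL15 -1.01 and -1.94, and IL32 rose by 1.47 at 24 h and fell by 2.22 at 72 h. After the shift to 1 median these counts were 7 and 2 at 24 h and 4 and 3 at 72 h, and the 24 h change of IL15 was -0.37 (limma adjusted p = 0.0396). Quantile normalisation left the 72 h change of CCL28 at -1.04 (0.0157).

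The gp130, JAK and STAT3 list, with 10 of 12 tested, was mixed: 1 higher and 3 lower with Aa at 24 h, 2 and 5 at 48 h, 3 and 3 with Ota at 24 h (6 and 3 after the shift to 1 median) and 4 and 4 at 72 h (5 and 3). With Aa the kinase TYK2 rose by 0.90 and 1.77, the feedback inhibitor SOCS1 rose by 1.58 at 48 h and the LIF receptor LIFR fell by 2.45 at 48 h. With Ota PIAS3, an inhibitor of STAT3, was at least 13.1-fold lower at 24 h and fell by 1.61 at 72 h (-1.05 under quantile normalisation), and TYK2 fell by 1.90 at 72 h. OSMR, the oncostatin M receptor, rose by 0.59 (1.23 after the shift) and 1.66, but another of its probe sets was called lower at 72 h (-1.08, limma adjusted p = 0.0108).

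Cytokine mRNA decay was represented by 9 tested genes of 10 listed. With Aa 2 rose and 1 fell at 24 h and 4 rose and 4 fell at 48 h. The Roquin genes RC3H1 (1.58 and 1.08) and RC3H2 (1.08 and 0.47), which promote decay of inflammatory transcripts, rose at both times, with a further RC3H2 set called lower at 24 h, and ZFP36, which encodes tristetraprolin, rose by 0.85 at 48 h. With Ota 2 rose and 6 fell at 24 h and 3 rose and 3 fell at 72 h, but after the shift to 1 median the counts at 24 h were 2 and 1. KHSRP rose by 0.64 and 0.99, the deadenylase scaffold CNOT1 fell by 0.96 at 24 h and rose by 0.46 at 72 h, and ZFP36L1 fell by 0.74 and 0.79. After the shift the 24 h changes were 1.28 for KHSRP, -0.32 for CNOT1 and -0.10 for ZFP36L1, the last no longer called (limma adjusted p = 0.414), and those at 72 h were 0.79 for CNOT1 and -0.46 for ZFP36L1. The chosen ELAVL1 set was called lower at both Ota times while 2 further ELAVL1 sets were called higher, so this gene has no settled direction.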

How the data were processed

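Affymetrix arrays of 36 HK-2 cultures were deposited as 1 table of 54675 probe sets in log2 units, which the authors made with GCRMA, per the submitters' processing notes; its version is not given in the sources used here. All value columns were used (0 were left out). Of the probe sets, 41091 carry 1 symbol in the platform annotation, 1801 several, 11721 none and 62 are controls, and gene IDs of all 10 members matched RefSeq. The members and lists were chosen with earlier results of these data known.

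Group means were fitted with limma 3.58.1 in R 4.3.3 over the 18 arrays of a compound (12 residual degrees of freedom), or over 36 arrays between compounds, for genes over 4 on at least 3 arrays (10972 for Aa, 11029 for Ota, 11405 for both). P-values were adjusted by Benjamini-Hochberg over all genes of a comparison, with a threshold of 0.05; n = 3 arrays limits the precision. In each pathway list the 3 called genes with the largest high dose change per compound were named. "At least" folds set the lower group's values at or under 4 to 4 and keep the higher group's as measured. Tables, promoters and figures used Python 3.11.15.

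Same-numbered Aa arrays deviated together in 45 of 45 pairs (r 0.189 to 0.595), so the numbers pair them. Of the Ota groups, the 24 h high dose (r 0.109 to 0.230) and low dose (0.312 to 0.411) pair with their vehicle, the others not at every number. Alternatives were no filter, a filter at 6, values at or under 4 set to 4, quantile normalisation, a common median, other arrays in the fit, the replicate block, the second probe set, an intensity trend and single-array omissions.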

Additional observations from a re-analysis of the deposited data

Results flagged for a closer look

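The effect of a dose differed between time points for 5 results. That of the Aa high dose on IL11 was 5.19 log2 units greater at 48 h than at 24 h as fitted, or 4.27 with values at or under 4 set to 4. IL11 entered through the 48 h high dose arrays alone, so this is a description and no test supports it. The other results rest on a limma test of the difference itself. The Aa high dose effect on CXCL8 was 1.94 greater at 48 h, its 24 h effect being -1.18 and its 48 h effect 0.76. The Ota high dose effect on IL6 was 3.69 greater at 72 h than at 24 h, and 2.29 without the 72 h high dose array of replicate 3. For IL1B the Ota high dose effect differed by 1.02 (limma adjusted p = 0.0441), a call lost in 8 of the 12 single-array omissions and in 5 other settings. Its Ota low dose effect differed by 2.17, or by 1.59 with values at or under 4 set to 4. The low dose arrays lay under all vehicle arrays at 24 h and above them at 72 h.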

How the results depend on the processing

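Among 861 refits of single member changes 795 neither turned sign nor changed side of the threshold, 51 changed side and 15 turned sign. A change that became 0 with values at or under 4 set to 4 is counted as not turned. Of 795 single-array omissions 714 did neither, 46 changed side and 35 turned sign. The changes that turned sign passed neither before nor after, and were 0.77 or smaller in size as reported. Counts of members called moved by over 1.5 times in 33 of 180 other settings and in 23 of 156 omissions. The exceptions follow, and unless stated their cause was not tested. With the replicate block the count was 4 (against 2) for Aa high versus low dose at 24 h, 3 (0) for the Aa low dose at 48 h, 5 (3) for Aa high versus low at 48 h, 5 (2) for the Aa high dose effect over time, 2 (0) for the Aa vehicle cultures, 1 (0) for the Ota low dose at 24 h, 4 (2) and 2 (1) for the Ota high and low dose effects over time and 1 (0) for Ota versus Aa at the high dose; it ended no call of a member. With no filter it was 1 (0) for the Aa low dose at 24 h, 1 (2) for Aa high versus low at 24 h, 4 (2) for the Ota high dose at 24 h, 2 (1) for Ota high versus low at 24 h and 2 (0) for Ota versus Aa, partly because untested members enter. A filter at 6 drops IL1B and CCL20 and left 1 (2) for the Ota high dose at 24 h, 0 (1) for the low dose at 72 h, 2 (4) for high versus low at 72 h, 1 (2) for the high dose effect and 0 (1) for the low dose effect. Values set to 4 and the common median each gave 1 (2) for Aa high versus low at 24 h, the Ota high dose at 24 h and the Ota high dose effect. Quantile normalisation, other arrays in the fit and the intensity trend gave 1 (2) for Aa high versus low at 24 h, and other arrays 1 (0) for the Aa vehicle cultures. The second probe set gave 1 (2) there for Aa high versus low, 3 (5) for the Aa high dose at 48 h, 4 (2) for the Ota high dose at 24 h and 1 (2) for the Ota high dose effect.

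Leaving out single arrays gave 1 to 3 for the Aa high dose at 24 h and for the Aa and Ota high dose effects over time, 1 to 2 for Aa high versus low at 24 h and the Ota high dose at 24 h, 0 to 2 for the Aa low dose at 48 h, and 0 to 1 for the Aa vehicle cultures, Ota high versus low at 24 h and Ota versus Aa at the high dose. Over all genes the block moved the calls to 4323 (2753) for the Aa low dose at 24 h, 4553 (2970) for Aa high versus low at 24 h, 4304 (2276) for the Aa high and 1022 (180) for the Aa low dose effect, 1792 (142) for the Aa vehicle cultures and 1135 (563) for Ota versus Aa at the low dose. Of the called genes, the share higher was 33.7% for the Ota high dose at 24 h as deposited, 55.6% after quantile normalisation and 63.8% at a common median; at 72 h these were 41.5%, 54.6% and 58.6%. Signals near 4 limit IL1B, CCL20, IL11 and IL1A.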
